A study of Durio zibethinus with 9 samples.

Results

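The genes described here were low in the mature pulp of durian (Durio zibethinus, variety D24) and high both before and after it. They were chosen by their FPKM (fragments mapped to a gene, scaled by its length and by the depth of the library). The lowest of the 6 young and ripening libraries had to hold at least 5 FPKM and at least 4 times the highest of the 3 mature libraries, with genes absent from a table taken as 0. Of 39453 reference genes above 0 in at least 1 library, 74 met these limits. The rule leaves out 9 gene names, of which 4 were among the 74, so 70 genes remained. The same limits with the stages exchanged were met by 61 genes low only in young pulp and by 20 low only in ripening pulp, and with the direction turned by 79 genes high only in mature pulp.

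The study sequenced poly-A RNA from the fruit pulp of this variety at 3 ages, with 3 libraries each. Young-stage (YS) pulp was taken at 90 days, mature-stage (MS) pulp at 120 days and ripening-stage (RS) pulp at 127 days after flowering. All samples came from 1 variety, and no treatment was given. According to the study's methods, the ripe fruit were mature fruit left to ripen at room temperature, so that storage and ripening cannot be told apart. The pulp was separated from husk and seeds before freezing. The labels name neither the fruit nor the tree of a library. The p-values below thus cover the variation among these libraries alone, be it technical or between fruits.

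Durian is a climacteric fruit, in which a rise of ethylene and respiration starts the softening and the aroma of the pulp. Among the 70 genes, 10 carry a product name in the study's tables, 2 are listed there as uncharacterized and 58 have no entry. The 10 names cover calcium-dependent and redox signalling, detoxification and membrane-associated proteins, a galactosyltransferase and a phosphoenolpyruvate carboxylase kinase. The study's tables list genes by their change in these samples, so the names need not stand for the 58 without an entry. Calcium and hydrogen peroxide act as second messengers in plant cells, and kinases, C2-domain proteins and zinc finger repressors pass such signals on. Glutathione S-transferases join glutathione to reactive compounds, and nucleoredoxins are oxidoreductases of the thioredoxin family.

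The libraries held 2350 to 3553 Mb of mapped bases, computed from the ratio of coverage to FPKM. The MS libraries were almost alike. Over genes with a mean of 500 FPKM or more, the spread of the log2 ratio between MS libraries was 0.03 to 0.04, against 0.92 to 1.40 between YS libraries. RS libraries 01 and 02 were also close, at 0.10 in the same class. RS library 03 stood apart. It had 15171 genes at 1 FPKM or more, against 19471 and 19614, and 26.3% of its FPKM lay in 10 genes, against 8.34% and 8.74%. The files hold no counts, so whether close libraries are separate samples could not be tested. MS values are therefore given by library and with no SD.

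Together the 70 genes made up 1.85% to 2.23% of the summed FPKM of reference genes in the YS libraries. The MS libraries held 0.137% to 0.141%, and the RS libraries 1.31% to 1.68%. The median member stood at 57.5, 65.3 and 60.4 FPKM in YS, at 2.42, 2.39 and 2.47 in MS and at 53.7, 56.2 and 27.98 in RS. RS library 03 was the low library of its stage. These differences from MS follow from the rule and were not tested. The mean YS level was 5.35 to 915 times the mean MS level, with a median of 22.6. The mean RS level was 4.48 to 154 times the MS level, with a median of 15.5.

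**Figure D1:**
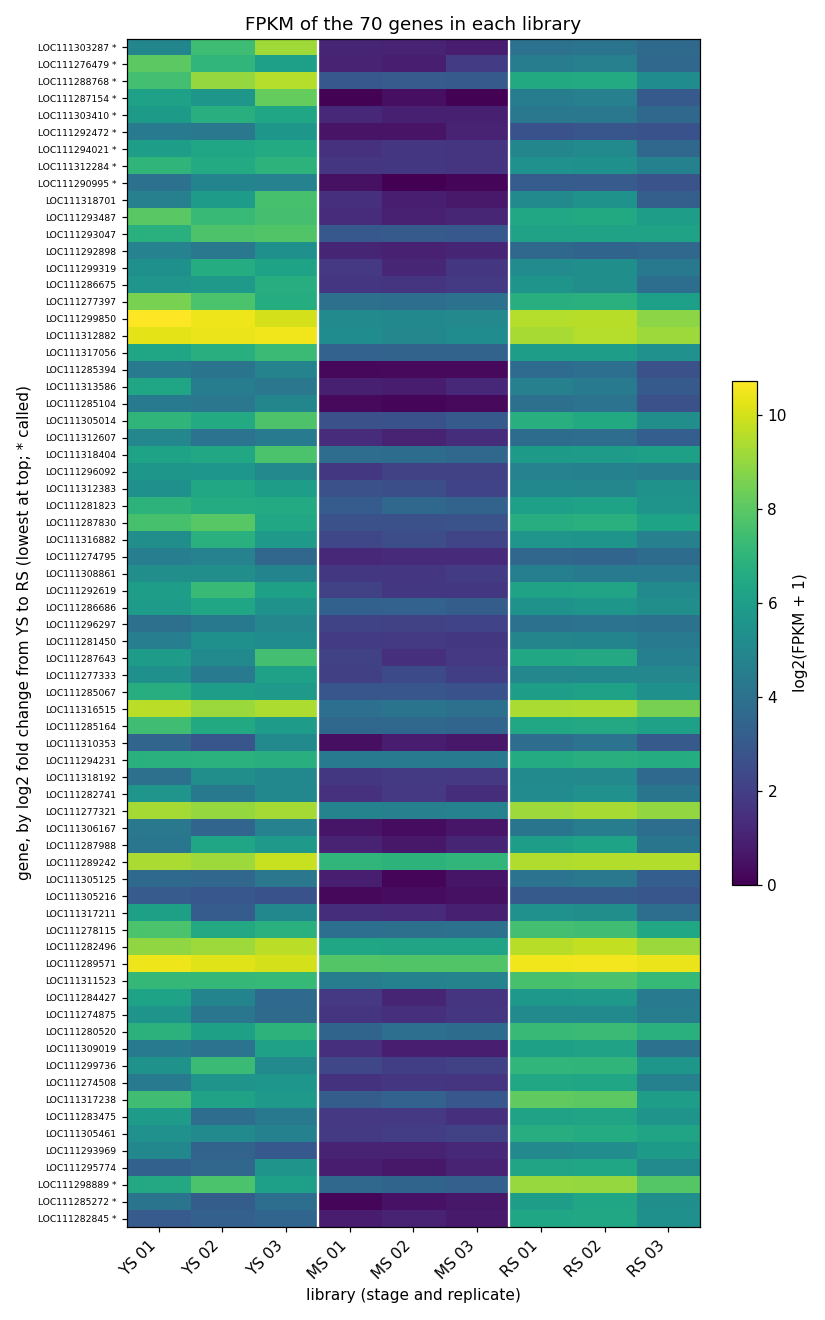
Level of each of the 70 genes (rows) in each of the 9 libraries (columns), as log2(FPKM + 1), in the order of the log2 fold change from YS to RS. Within each row the MS columns are darker than the others, as the rule demands, and the genes marked with a star passed the test from YS to RS, 9 at the top and 3 at the bottom.

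The levels spanned a wide range. In YS, 7 genes had a mean above 500 FPKM, 19 lay between 100 and 500, and 44 were below 100. In MS, 15 genes had a mean below 1 FPKM, 41 lay between 1 and 10, and 14 were at 10 or more. The lowest YS or RS library exceeded the highest MS library 10 times or more in 17 genes, 5 to 10 times in 34 and less than 5 times in 19.

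The largest such ratio, 39.2, belonged to LOC111293487, a GEM-like protein 5 gene. GEM-like proteins carry a GRAM domain, a fold found in membrane-associated proteins. Its YS libraries held 250, 154 and 188 FPKM, its MS libraries 1.56, 0.967 and 1.21, and its RS libraries 85.7, 89.7 and 61.1. All YS libraries lay above all RS libraries. The log2 fold change from YS to RS was -1.30 (standard error 0.36, limma adjusted p = 0.0355), short of the 1.5 that a call required. The gene lies on scaffold NW_019168470.1, minus strand, from 25910932 to 25912329, in the coordinates of the deposited tables, whose build name is not given in the sources used here.

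A second GEM-like protein 5 gene, LOC111316515, was on another scaffold, NW_019167960.1, plus strand, from 475695 to 477066. It was the most abundant of the genes with a product name. The YS libraries held 787, 554 and 677 FPKM, the MS libraries 14.2, 16.7 and 14.7, and the RS libraries 650, 674 and 362. YS and RS overlapped here, and the log2 fold change was -0.30 (standard error 0.38, adjusted p = 0.635). The ratio of the lowest YS or RS library to the highest MS library was 21.7. The study's tables name no other GEM-like gene.

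Calcium-related products were represented by an exchanger and a C2-domain protein. LOC111287154, a sodium/calcium exchanger NCL-like gene, held 68.8, 50.6 and 286 FPKM in YS, 0.0447, 0.357 and 0.0417 in MS, and 22.1, 24.8 and 7.15 in RS. NCL is known from Arabidopsis as an exchanger-like protein with calcium-binding motifs. The gene was near 0 in MS, was highest in YS library 03, and all its YS libraries lay above all RS libraries. LOC111287988, a protein SRC2-like gene, held 17.4, 77.5 and 54.9 FPKM in YS, 1.05, 0.628 and 1.18 in MS, and 63.9, 72.7 and 17.02 in RS. SRC2 proteins carry a C2 domain and were first described in soybean as cold-induced. Its YS and RS libraries covered nearly the same range, and the log2 fold change was 0.03 (standard error 0.65, adjusted p = 0.982).

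Regulators of stress responses in Arabidopsis, the kinase OXI1 and the zinc finger repressor ZAT10, have similar genes among the 70. LOC111305461, a serine/threonine-protein kinase OXI1-like gene, held 41.4, 32.7 and 25.4 FPKM in YS, 2.58, 2.82 and 3.17 in MS, and 100.4, 96.2 and 75.6 in RS. OXI1 is activated by hydrogen peroxide. The study lists LOC111305461 as up-regulated from young to mature pulp, the opposite of the values here, and the reason was not tested. All RS libraries lay above all YS libraries, and the log2 fold change was 1.44 (standard error 0.35, adjusted p = 0.0216), just under the limit of 1.5. It passed without YS library 01 (1.61, adjusted p = 0.0212), without RS library 03 (1.57, adjusted p = 0.0300) and on size factors (1.92, adjusted p = 0.00742). LOC111295774, listed as zinc finger protein ZAT10-like, held 9.09, 10.7 and 45.9 FPKM in YS, 0.743, 0.637 and 1.01 in MS, and 75.0, 77.7 and 33.03 in RS. YS library 03 and RS library 03 made the stages overlap. The log2 fold change was 1.73 (standard error 0.60, adjusted p = 0.0776), and 2.43 without YS library 03 (adjusted p = 0.0121). Another assembly of the species annotates this gene as a transcribed pseudogene.

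The study's tables list 2 further ZAT genes, both ZAT12-like. LOC111303611 held 157, 67.7 and 12.9 FPKM in YS, 6.03, 6.38 and 6.04 in MS, and 244, 239 and 221 in RS, and missed the rule by YS library 03 alone. LOC111296606 had another shape, with 0 to 2.78 FPKM in YS, 34.8 to 37.9 in MS and 75.7 to 89.0 in RS. These genes were picked by name from tables that the study made on these samples.

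LOC111298889, a probable glutathione S-transferase gene, held 88.2, 205 and 66.0 FPKM in YS, 10.9, 9.96 and 8.74 in MS, and 533, 511 and 237 in RS. Every RS library lay above every YS library. The gene rose from YS to RS by 1.91 on the log2 scale (standard error 0.50, adjusted p = 0.0297). The call was lost without YS library 01 (1.78, adjusted p = 0.0634), YS library 03 (1.57, adjusted p = 0.0844), RS library 01 (1.70, adjusted p = 0.0834) or RS library 02 (1.73, adjusted p = 0.0783). It was also lost with RS libraries 01 and 02 averaged (1.72, adjusted p = 0.0760). The other 5 glutathione S-transferase genes in the study's tables all rose from YS to RS, at log2 fold changes of 3.14 to 6.16. None of the 5 exceeded 11.96 FPKM in a YS library, whereas LOC111298889 held at least 66.0. The tables picked these genes on the same samples, and LOC111296590 and LOC111296858 had nearly equal values in every library, so reads may be shared between them.

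LOC111282845, a probable nucleoredoxin 1 gene, had the largest rise of the 70 from YS to RS. The YS libraries held 7.44, 8.81 and 10.4 FPKM, the MS libraries 0.786, 1.06 and 0.730, and the RS libraries 81.2, 81.97 and 41.0. The lowest RS library was well above the highest YS library. The log2 fold change was 2.75 (standard error 0.39, limma adjusted p = 0.00192), and the call held in each of the 15 other settings. The uncharacterized gene LOC111285272 was alike in shape. It held 16.5, 7.97 and 13.6 FPKM in YS, 0.125, 0.447 and 0.602 in MS, and 63.5, 77.8 and 39.4 in RS, and rose by 2.16 on the log2 scale (standard error 0.41, adjusted p = 0.00738). It lost its call only with no filter on low values, at an adjusted p of 0.0541.

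LOC111293969, a phosphoenolpyruvate carboxylase kinase 1-like gene, held 30.7, 9.57 and 6.71 FPKM in YS, 1.10, 1.12 and 1.29 in MS, and 31.8, 36.7 and 55.7 in RS. This kinase phosphorylates phosphoenolpyruvate carboxylase, an enzyme of organic acid synthesis. All RS libraries lay above all YS libraries, by a small margin over YS library 01. Its RS library 03 was the highest of the stage, unlike in most of the 70 genes. The log2 fold change was 1.59 (standard error 0.52, adjusted p = 0.0668), and 2.19 without YS library 01 (adjusted p = 0.00782).

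LOC111303287, listed as galactosyltransferase 6, held 29.2, 165 and 583 FPKM in YS, 1.13, 1.02 and 0.771 in MS, and 15, 16.6 and 12.2 in RS. The listed name may be cut short. The study's text names another gene as a galactinol-sucrose galactosyltransferase, so the substrate of this enzyme is uncertain. Its YS libraries differed 19.98-fold, the widest range among the 70, and all 3 lay above all RS libraries. The mean RS level was 5.65% of the mean YS level. The last of the genes with some annotation, LOC111306167, is listed as uncharacterized. It held 18.4, 10.4 and 25.98 FPKM in YS, 0.512, 0.262 and 0.577 in MS, and 16.8, 21.5 and 13.8 in RS, so that its YS and RS ranges overlapped.

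**Figure D2:**
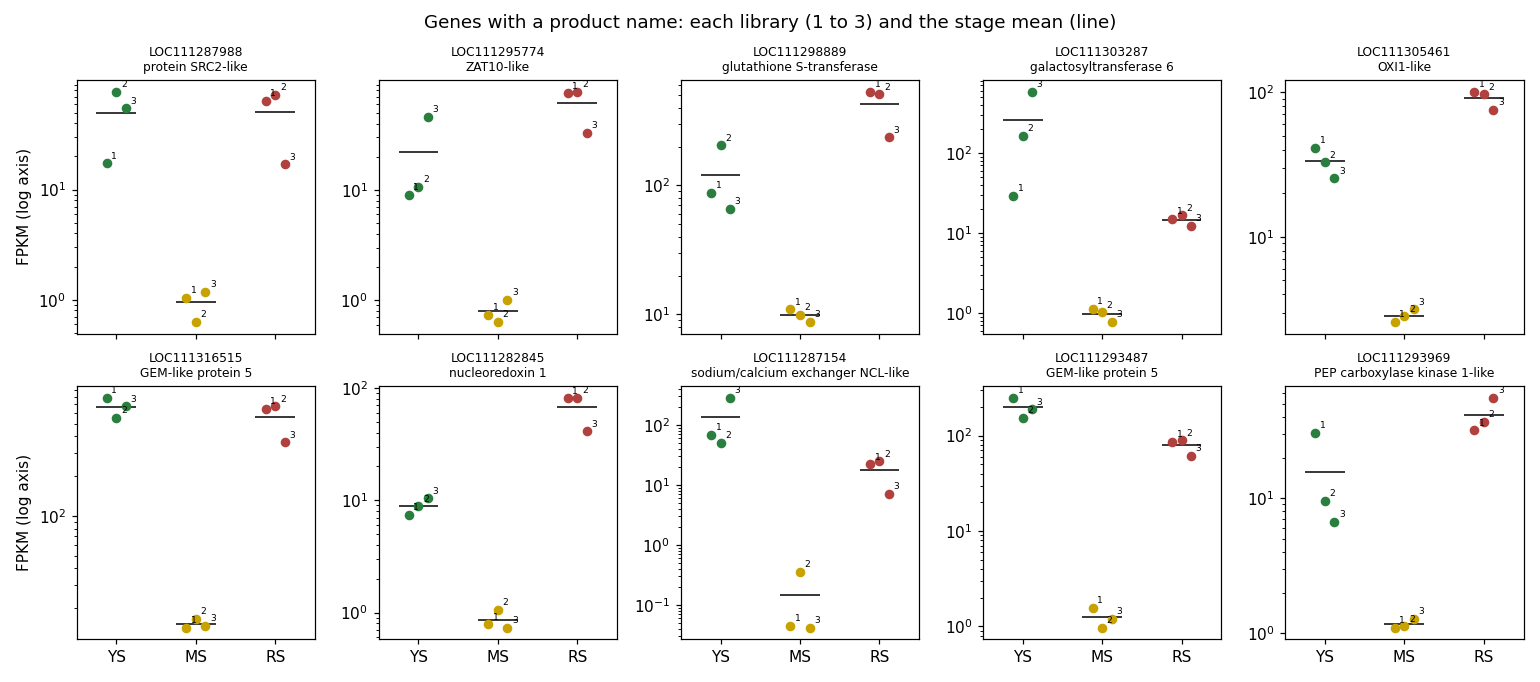
FPKM on a log axis of the 10 genes with a product name, with 1 point for each library, numbered by replicate, and a line at the mean of each stage. In every panel the 3 MS points lie below all YS and RS points, and the RS points lie above all YS points in 4 panels, those of glutathione S-transferase, OXI1-like, nucleoredoxin 1 and phosphoenolpyruvate carboxylase kinase.

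Of the genes without a product name, 4 had the largest ratios, among them the uncharacterized LOC111306167 at 17.99. LOC111285394 and LOC111285104 both stood at 24.4. LOC111285394 held 19.7, 16.3 and 27.04 FPKM in YS, 0.187, 0.199 and 0.214 in MS, and 12.4, 14.04 and 5.24 in RS. LOC111285104 held 20.03, 17.9 and 29.6 in YS, 0.219, 0.155 and 0.201 in MS, and 14.6, 15.8 and 5.36 in RS. Both lie on the minus strand of scaffold NW_019168159.1, 45498 bases apart, and their values ran almost in parallel, so the share of reads of each is uncertain. LOC111277321 reached a ratio of 18.7 at a high level, with 611, 516 and 609 FPKM in YS, 27.1, 24.3 and 25.9 in MS, and 563, 629 and 506 in RS. Its YS and RS libraries covered the same range.

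LOC111312882, with a ratio of 15.9, was among the 4 most abundant genes without a product name. It held 1225, 1336 and 1426 FPKM in YS, 36.0, 29.7 and 36.0 in MS, and 636, 744 and 573 in RS. LOC111299850 held 1681, 1407 and 1045 in YS, 32.9, 30.9 and 31.7 in MS, and 725, 746 and 468 in RS. In both genes every YS library lay above every RS library, and neither passed the test (log2 fold changes of -1.03 and -1.10, limma adjusted p = 0.0580 and 0.0704).

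The other abundant genes kept a sizeable level in mature pulp. LOC111289571 held 1400, 1154 and 1041 FPKM in YS, 227, 221 and 223 in MS, and 1443, 1464 and 1369 in RS. LOC111289242 held 654, 571 and 896 in YS, 133, 121 and 132 in MS, and 702, 723 and 707 in RS. Their ratios were 4.59 and 4.31, close to the lower limit of the rule, and YS and RS overlapped in both.

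The rule sets the same floor under YS and RS, so the step from YS to RS is the contrast that it does not use. It was tested with limma on log2(FPKM + 1) over 21598 genes, with adjustment over all of them. A gene was called where the log2 fold change was beyond 1.5 in size and the adjusted p under 0.05. All 70 genes passed the filter on low values, which their floor ensures. In all, 3 of the 70 rose (4.29%), against 2.89% of all tested genes. A further 9 fell (12.9%), against 9.36%. Among the 6769 genes that also held 5 FPKM or more in all YS and RS libraries, 3.13% rose and 4.55% fell. The other 58 genes were not called, which does not show that their YS and RS levels were alike.

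The median log2 fold change from YS to RS was -0.37 over the 70 genes and -0.35 over all tested genes. Over the genes at 5 FPKM or more in all YS and RS libraries it was -0.12. Dividing FPKM by size factors moved the median of all genes by more than 0.1, to 0.01, and that of the 70 genes to 0.10. For the genes at 5 FPKM or more it became 0.345. The direction of these medians thus turned with the scaling. On size factors 5 of the 70 rose and 5 fell, beside 1101 and 1421 of all 21598 tested genes. Without RS library 03 4 rose and 3 fell, beside 660 and 1002 of all. Without YS library 01 5 rose, beside 848 of all, and without YS library 02 5 fell, beside 1132 of all.

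The 9 genes that fell include the exchanger LOC111287154 (log2 fold change -2.58, standard error 0.67, adjusted p = 0.0278) and galactosyltransferase 6 LOC111303287 (-3.20, standard error 0.85, adjusted p = 0.0303). Without RS library 03 these values were -2.05 (adjusted p = 0.124) and -3.09 (adjusted p = 0.136). Without YS library 03 they were -1.83 (adjusted p = 0.0580) and -2.19 (adjusted p = 0.0562), and LOC111303287 also lost its call without YS library 02 (-3.10, adjusted p = 0.103). With the replicate number as a block the exchanger did not pass (adjusted p = 0.0828). The other 7 have no product name.

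LOC111303410 kept its call in each of the 15 other settings. It held 56.2, 108 and 76.7 FPKM in YS, 1.25, 0.916 and 0.936 in MS, and 18.8, 18.7 and 10.8 in RS, and changed by -2.24 on the log2 scale (standard error 0.39, adjusted p = 0.00538). LOC111276479 held 262, 131 and 65.2 FPKM in YS, 1.08, 0.886 and 2.75 in MS, and 21.9, 24.8 and 11.4 in RS (-2.76, standard error 0.52, adjusted p = 0.00763). LOC111292472 held 19.9, 18.6 and 49.6 in YS, 0.462, 0.472 and 1.03 in MS, and 5.57, 6.30 and 5.55 in RS (-2.02, standard error 0.42, adjusted p = 0.0118). Both lost the call only where no filter on low values was used.

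LOC111288768, a pseudogene in the other assembly, held 184, 513 and 736 FPKM in YS, 6.63, 7.36 and 7.14 in MS, and 89.3, 91.6 and 36.6 in RS. Its log2 fold change was -2.60 (standard error 0.56, adjusted p = 0.0134), and it did not pass without YS library 02 (adjusted p = 0.0593) or RS library 03 (adjusted p = 0.0691). LOC111312284, at 129, 92.5 and 119 FPKM in YS, 2.13 to 2.37 in MS and 41.5, 40.7 and 25.1 in RS, changed by -1.66 (standard error 0.36, adjusted p = 0.0136). Without RS library 03 its value was -1.43, under the limit of size.

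LOC111294021, at 60.7, 78.3 and 93.1 FPKM in YS, 1.90 to 2.26 in MS and 29.2, 33.3 and 10.8 in RS, changed by -1.74 (standard error 0.45, adjusted p = 0.0285). It did not pass without YS library 02 (adjusted p = 0.0957), YS library 03 (adjusted p = 0.0742) or RS library 03 (-1.26), nor with the replicate block (adjusted p = 0.0623). LOC111290995, at 15.5, 27.4 and 26.01 FPKM in YS and 7.74, 7.45 and 5.72 in RS, was not listed in MS library 02 and held 0.383 and 0.154 in the others. It changed by -1.56 (standard error 0.36, adjusted p = 0.0184). The call was lost without any 1 of YS libraries 02 and 03 or the RS libraries, where the values lay between -1.63 and -1.41. It was also lost with RS libraries 01 and 02 averaged.

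**Figure D3:**
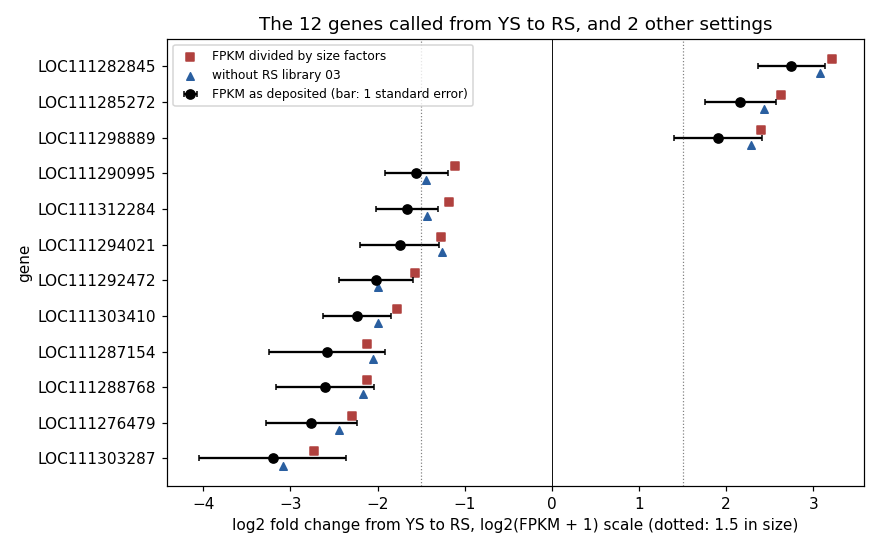
Log2 fold change from YS to RS of the 12 called genes with FPKM as deposited (black, bar 1 standard error), on size factors (red squares) and without RS library 03 (blue triangles). All 12 keep their direction in the 3 settings, and LOC111294021, LOC111290995 and LOC111312284 move inside the dotted limit of 1.5 in both other settings.

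Without a test, all YS libraries lay above all RS libraries in 25 of the 70 genes (35.7%), against 29.1% of all tested genes and 20.2% of those at 5 FPKM or more. All RS libraries lay above all YS libraries in 5 genes (7.14%), against 8.78% and 12.3%. The stages overlapped in the other 40. The mean RS level was 5.65% to 766% of the mean YS level, with a median of 71.6%. It was below 50% in 20 genes, from 50% to 100% in 28, from 100% to 200% in 14 and above 200% in 8.

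**Figure D4:**
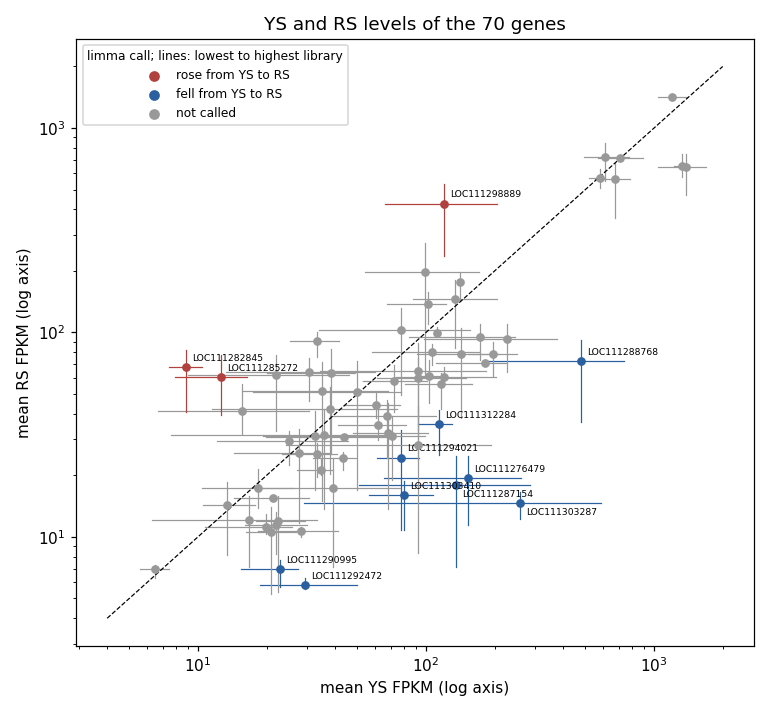
Mean RS against mean YS level of the 70 genes on log axes of FPKM, with lines from the lowest to the highest library. The 3 genes that rose (red) lie above the dashed line of equal levels, the 9 that fell (blue) lie below it, and most grey points, the 58 genes not called, spread around it.

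Libraries of a stage differed in these genes. RS library 03 was the lowest RS library in 60 of the 70 genes, and in 92.6% of the 11302 genes at 5 FPKM or more in RS libraries 01 and 02. Its level was 0.625 times the mean of the other RS libraries in the median member, against 0.536 over those genes. It was above that mean in 6 of the 70, by the most in the carboxylase kinase gene LOC111293969, at 1.63 times. Among YS libraries none was low throughout. Library 01 was lowest in 23 genes, library 02 in 25 and library 03 in 22. The highest YS library exceeded the lowest 2.26-fold in the median member, and 1.05-fold in the most even, LOC111311523. The rule reads the lowest RS library, so RS library 03 set much of the membership. Without it 199 genes met the rule, and on size factors 139, all 70 included in both.

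Close to the limit of fold, the last genes inside were LOC111296297, LOC111286686 and LOC111276479, with ratios of 4.05, 4.09 and 4.15. The first outside were LOC111310218 at 3.98, LOC111303698 at 3.96 and LOC111294067 at 3.96. Close to the floor, the last inside were LOC111285394, LOC111285104 and LOC111292472, whose lowest YS or RS libraries held 5.24, 5.36 and 5.55 FPKM. The first outside were LOC111312192, LOC111293723 and LOC111275089 at 4.90, 4.90 and 4.88 FPKM.

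Of 11 gene lists drawn by product name from the study's tables, 3 hold members of the 70. The study picked these genes with the same samples, and the counts are no independent evidence of a direction. The list of heat shock and stress proteins holds LOC111287988 and LOC111298889. Of its 23 tested genes 15 rose from YS to RS and 2 fell, with or without RS library 03, and the median log2 fold change was 3.15 against -0.35 over all genes.

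The list of calcium signalling and receptor kinases holds LOC111287154 and LOC111305461. Of its 27 tested genes 5 rose and 6 fell, or 6 and 3 without RS library 03, with a median of -0.38. The list of other transcription factors holds LOC111295774. Of its 27 tested genes 11 rose and 6 fell, or 11 and 2 without RS library 03, with a median of 1.69. The 8 lists on ethylene response factors, ethylene synthesis, ethylene receptors, xyloglucan, wall enzymes, ubiquitin ligases, hormones and sugars hold none of the 70. Their medians ran from -2.24 to 0.30. Genes that the rule leaves out by name could not be counted here. A weaker dip, an MS mean below every YS and RS library, was present in 9.45% of all tested genes. For the ethylene and xyloglucan lists in turn it was 15 of 47, 9 of 17, 9 of 22 and 9 of 22 tested genes. For wall enzymes, ubiquitin ligases, hormones and sugars it was 16 of 58, 8 of 29, 5 of 8 and 8 of 21. The lists follow product names as printed, so LOC111303287, whose name may be cut short, could be missing from the sugar list.

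Markers of other cells were read beside these results. In bulk pulp, fewer cells of a type and less RNA per cell cannot be told apart. The seed marker protein SLE1 (LOC111294535) was also lowest in MS. Unlike in the 70 genes, its RS libraries lay under the floor of 5 FPKM, far below its YS libraries. It held 164, 27.8 and 16.2 FPKM in YS, 0.217, 0.383 and 0.102 in MS and 2.25, 3.29 and 1.499 in RS. The other seed marker, ATS3B-like LOC111280983, stayed at or below 0.597 FPKM and was not listed in MS libraries 01 and 02 and RS library 03. Both together held 16.8 to 164 FPKM in YS, 0.217 to 0.383 in MS and 1.499 to 3.53 in RS. The pulp had been separated from seeds before RNA isolation, and a part of seed tissue in the levels of the 70 genes was not tested. The 2 markers of lignified or vascular tissue summed to 3.59 to 5.35 FPKM in YS, 2.02 to 2.93 in MS and 0 to 0.123 in RS. Of these, SIEVE ELEMENT OCCLUSION B-like was listed in YS library 02 alone. The 2 green tissue markers differed in shape. GLK1-like (LOC111298473) held 7.05 to 7.43 FPKM in MS, at most 0.0864 in YS and 1.04 to 1.29 in RS. PHOTOSYSTEM I ASSEMBLY 2 (LOC111286552) was lowest in MS, like the 70 genes, with 0.0457 to 0.0726 FPKM, against 1.03 to 1.85 in YS and 0.0942 to 0.334 in RS. Their sum was 1.06 to 1.85 in YS, 7.12 to 7.48 in MS and 1.32 to 1.38 in RS. The ripening marker polygalacturonase-like LOC111311521 held 1341, 1320 and 41.2 FPKM in RS and at most 1.89 elsewhere, so that RS library 03 was again apart. The second ripening marker, methionine gamma-lyase-like LOC111315809, did not exceed 0.142 FPKM in any library. The paper describes this gene as abundant in ripening pulp, which these values do not show.

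The 70 genes lie on 26 scaffolds, with at most 8 on 1 of them. Only 4 had another of the 70 within 50 kb. These were the pair LOC111285394 and LOC111285104, and the uncharacterized LOC111306167, which lies 33954 bases before the OXI1-like gene LOC111305461 on scaffold NW_019167893.1. Of the 13911 genes at 5 FPKM or more in 3 libraries, 92.7% had another such gene within 50 kb, a share that grows with the size of the set. The genes were short on the genome, with a median span of 1890 bases against 3905 over all tested genes. Of the 68 genes found in another assembly of the species, 63 were protein coding (92.6%, against 88.4% of tested genes that matched). The others were 2 pseudogenes, 2 transcribed pseudogenes and 1 long non-coding RNA.

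The deposited tables also list loci that the authors' assembly built without a reference name. They rest on the same reads and are no second measurement, but they do not depend on the limits of the annotated gene. Of 630 pairs of a gene and a library, 620 had such a locus on the same strand or with no strand given. In 76.7% of the 630 the FPKM of the locus was within 5% of that of the gene. By the values of the overlapping loci, 61 of the 70 genes met the same limits. LOC111305216, which met the limits, had loci at 70.2 to 80.2 FPKM in YS, where the gene held 5.56 to 7.47. LOC111298889, the glutathione S-transferase gene, met them too, but its locus lay above the gene in every library. The locus held 124 to 360 FPKM in YS, 24.1 to 27.8 in MS and 442 to 937 in RS. The gene held 66.0 to 205, 8.74 to 10.9 and 237 to 533. The 9 that did not meet them include genes with no locus in a YS or RS library. Also among the 9, LOC111312607 had a locus at 18.3 FPKM in MS library 02, where the gene held 1.01. LOC111296297 had a locus at 18.7 FPKM in MS library 01, where the gene held 3.56. The library kit does not mark strand, and 3 of the 70 genes overlap another reference gene on the opposite strand and 2 on the same strand, so their reads cannot be told apart from those of the neighbour. These 5 are LOC111317238, LOC111284427, LOC111286675, LOC111282741 and LOC111294231.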

How the data were processed

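Each of the 9 libraries (3 of YS, MS and RS pulp) had 1 gene table. Per the file headers, the deposited values are coverage and FPKM for reference genes and assembled loci, a StringTie layout. The authors trimmed reads with Trimmomatic, checked them with FastQC and mapped them to the durian genome. The paper names HISAT2 before StringTie and the submitters' processing notes name Bowtie and TopHat, so the mapper, like the build, is not certain. Coverage is the authors' mean depth of a gene, and served here for the depth of a library.

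The members and the gene lists were chosen with earlier results of these data known. Genes not listed were set to 0. Genes with at least 1 FPKM in 3 of 9 libraries were tested from YS to RS (6 libraries, two-sided) with limma 3.58.1 on log2(FPKM + 1), with Benjamini-Hochberg adjustment. A fold change on this scale understates the change of low genes. YS to MS and MS to RS were used by the rule and not tested. Products came from the study's tables. Genes named are all with a product name, the 4 largest by ratio and the 4 most abundant of the rest, those nearest to the limits, and, added after their values were seen, the called genes, genes of the same product families, examples of genes whose assembled locus differed, overlapping genes and the most even gene. On simulated data for YS to RS over 21598 genes, 51% of changes of 3 on the log2 scale and 19% of changes of 2 were called. The simulation put 100 changes of each size into genes with a mean log2(FPKM + 1) above 3. Far fewer genes changed there than were called in the data, so these shares need not hold for the data. Alternatives were 2 other pseudocounts, 2 other filters, size factors (medians of ratios), a fit on all 9 libraries, each YS or RS library left out, a replicate block, a mean-variance trend and, added after the data were seen, RS libraries 01 and 02 averaged. The rule was also run with other limits. Gene types came from another assembly, ASM4732523v1, whose coordinates were not used.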

Additional observations from a re-analysis of the deposited data

How the results depend on the processing

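The number of genes meeting the rule was 118 at a fold of 3, 38 at a fold of 6, 26 at a fold of 8, 112 at a floor of 2 FPKM and 139 on size factors. It lay between 70 and 199 with each library left out, the highest without RS library 03. From YS to RS, 625 of all genes rose and 2022 fell. These counts were 341 and 583 with a pseudocount of 5, 300 and 615 with no filter, and 1101 and 1421 on size factors. With 5 FPKM in 3 libraries as the filter, 1309 fell. With each library left out, 426 to 848 rose and 1002 to 2478 fell, the fewest falls without RS library 03 and 1132 without YS library 02. Among the 70 genes 1 rose and 3 fell with no filter, and 5 rose and 5 fell on size factors. With all 9 libraries in the fit 5 rose, beside 710 of all 21598 tested genes. With each library left out 2 to 5 rose and 3 to 10 fell.

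The deviations of same-numbered YS and RS libraries from their stage means correlated at -0.16, 0.08 and -0.11. RS libraries 01 and 02 were close, so these values mostly reflect RS library 03 against both. They cannot show whether the numbers pair libraries. With the replicate block 595 of all genes rose and 1695 fell, and 3 and 7 of the 70. With RS libraries 01 and 02 averaged, 491 of all genes rose and 1870 fell, and 2 and 8 of the 70.

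Of the named genes, no called gene changed its direction in any setting. Of 15 settings, LOC111298889 and LOC111290995 kept their calls in 7, LOC111294021 in 8, LOC111303287 in 9, LOC111287154 in 10, LOC111288768 in 12 and LOC111312284 in 13. Near 0, LOC111287988 ranged from -0.58 to 0.68 with each library left out, was below 0 without YS library 01 or RS library 01 (-0.25) or 02 (-0.34), and was -0.29 with both RS libraries averaged. LOC111306167 turned to 0.46 on size factors, and to 0.05, 0.28, 0.01 and 0.14 without YS library 01 or 03 or RS library 01 or 03. LOC111316515 turned to 0.19 on size factors. LOC111277321 turned to 0.46 on size factors and to 0.0086, 0.0052 and 0.0449 without YS library 01 or 03 or RS library 03. LOC111289242 ranged from -0.11 to 0.22 with each library left out, and was below 0 without YS library 01 or 02. The cause was not tested for any of these. The files give no counts, so intervals from depth could not be had.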
